A study of Bos grunniens and Bos grunniens x Bos taurus with 6 samples.

Results

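Mitochondrial ribosomal protein genes are nuclear genes whose products form the ribosome inside the mitochondrion. They were taken here as every gene whose symbol begins with MRPL or MRPS followed by a number and that held at least 20 UMIs over 6 testis libraries. A UMI, or unique molecular identifier, counts 1 captured RNA molecule. Of 26961 features, 58 matched the symbol pattern and all 58 passed the minimum. The fewest UMIs belonged to MRPL4, with 137, and the most to MRPL52, with 34437. By protein, 36 of the genes belong to the large ribosomal subunit and 22 to the small subunit. MRPS30 is counted with the large subunit, where its protein sits despite its symbol. The products of 31 genes have a counterpart in bacterial ribosomes, and those of 27 are found in mitochondria alone.

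The mitochondrial ribosome translates the 13 messenger RNAs of the mitochondrial genome, each of which encodes a core subunit of the respiratory chain or of ATP synthase. Its RNA comes from the mitochondrial genome, but every one of its proteins is made in the cytosol and imported. Respiratory complexes therefore need the output of 2 genomes: mitochondrial mRNAs translated on this ribosome, and nuclear-encoded subunits translated in the cytosol. In the testis, Sertoli cells are known for glycolysis that supplies lactate to germ cells, and the mitochondria of male germ cells change form as the cells pass through meiosis and into the sperm midpiece.

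RNA of single cells from testis was measured in 6 libraries made with the 10x Genomics platform. There was 1 library of cattle-yak, the hybrid of cattle and yak, taken after sexual maturity. Its age is not given. The yak libraries were 2 of prepubertal animals at 6 months (replicates 1 and 2), 2 of adolescents at 18 months (replicates 3 and 4) and 1 of a sexually mature animal at 4 years (replicate 5). The tissue of every group had been frozen and thawed, digested with collagenase, hyaluronidase and trypsin, strained, and put in culture medium before capture. The labels do not state that the libraries of 1 age come from separate animals, so p-values measure the spread between these libraries, which may be technical.

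Every library is labelled as germ cells, but the cells went against that label: 3153 of the 29240 cells kept, or 10.8%, were germ-like by their marker genes. By library these cells made up 3.49% of the cattle-yak, 1.00% and 1.45% of the 6-month libraries, 17.7% and 14.4% of the 18-month libraries and 34.9% of the 4-year library. The libraries held 5104 to 8946 cell barcodes and 9575446 to 24762829 UMIs, and each pair of libraries shared 5 to 16 barcodes. Cells were clustered without the mitochondrial ribosomal protein genes, so those genes placed no cell in a class. Classes were named from marker genes as spermatogonium-like, spermatocyte-like, spermatid-like, Sertoli-like, stroma-like, mural-like (vessel wall), endothelial-like, macrophage-like and lymphocyte-like. By cluster name, Sertoli-like cells numbered 4 in the cattle-yak and 1 at 4 years, but their absence is not shown. A cluster with 69 cells of the 4-year yak, in which 6 of 9 Sertoli markers were raised, and another with 147 cattle-yak cells, in which 3 of 9 were, stayed unnamed, and gating each cell by its own markers gave 302 Sertoli cells in the cattle-yak and 71 at 4 years. The lymphocyte-like class is uncertain in the cattle-yak: 321 of its 1655 cells lay in 1 cluster, numbered 30, in which 5 of 6 lymphocyte markers and 5 of 9 Sertoli markers were raised and no lymphocyte marker was among the 10 leading genes. In those 321 cells the Sertoli marker list summed to 7676 and the lymphocyte list to 303 UMIs per 1000000. In the other 1334 lymphocyte-like cells of the cattle-yak the same lists summed to 635 and 3438. Spermatid-like cells came from the 4-year yak alone, where there were 736.

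Levels are given as CPM, the UMIs of a gene per 1000000 UMIs of the same cells. They were not divided by transcript length, so a level is compared between cells for 1 gene and not between genes. Summed over the 58 genes, the whole-library level was 3641 CPM in the cattle-yak, 3462 and 4070 CPM at 6 months, 4773 and 5250 at 18 months and 7513 CPM at 4 years. The libraries with the smallest germ-like shares had the lowest sums, and the 4-year library, with the largest share, had the highest. When named somatic-like cells alone were summed, the level was 3334 CPM in the cattle-yak, 3348 and 3956 CPM at 6 months, 3016 and 4235 at 18 months and 3861 CPM at 4 years. Those somatic values overlapped between 6 and 18 months, and the 4-year value lay between those of the 18-month libraries. Without cluster 30 the somatic value of the cattle-yak was 3091 CPM. In a whole library, a change in the number of cells of a type and a change in RNA per cell cannot be told apart.

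The SD of the summed level over the 6 libraries was 0.41 on the log2(CPM + 1) scale, and 39 of the 58 genes had a larger SD and 19 a smaller one. MRPL52, the member with the most UMIs, made up 7.52% of all member UMIs. It was also among the steadiest, at 364 CPM in the cattle-yak, 389 and 390 CPM at 6 months, 274 and 345 at 18 months and 447 CPM at 4 years. Its SD was 0.24 on the same scale, beside 0.20 for MRPS16 and 0.22 for MRPS34, the lowest of all members. MRPS16 encodes a small subunit protein whose loss in humans causes a respiratory chain deficiency.

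The largest SDs were 1.21 for MRPL32, 1.10 for MRPL34 and 1.09 for MRPL42. MRPL32, whose precursor is cut by a mitochondrial protease before it joins the large subunit, had 38.6 CPM in the cattle-yak, 32.4 and 48.5 CPM at 6 months, 158 and 93.0 at 18 months and 278 CPM at 4 years. MRPL34 had 38.5 CPM in the cattle-yak, 33.7 and 30.1 CPM at 6 months, 9.19 and 23.7 at 18 months and 107 CPM at 4 years. MRPL42 had 54.2 CPM in the cattle-yak, 36.9 and 57.8 CPM at 6 months, 74.6 and 70.0 at 18 months and 332 CPM at 4 years. All 3 genes peaked in the 4-year yak, but MRPL34 was lowest at 18 months, where MRPL32 and MRPL42 stood above both 6-month libraries. Among the other members with the most UMIs, MRPS26, MRPL41, MRPL40 and MRPS18C, the highest library was the 4-year yak for MRPS26, where it had more than in any other library, and for MRPS18C, at 545 CPM. For MRPL41 it was 18-month replicate 4, at 326 CPM, and for MRPL40 18-month replicate 3, at 286 CPM.

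**Figure D1:**
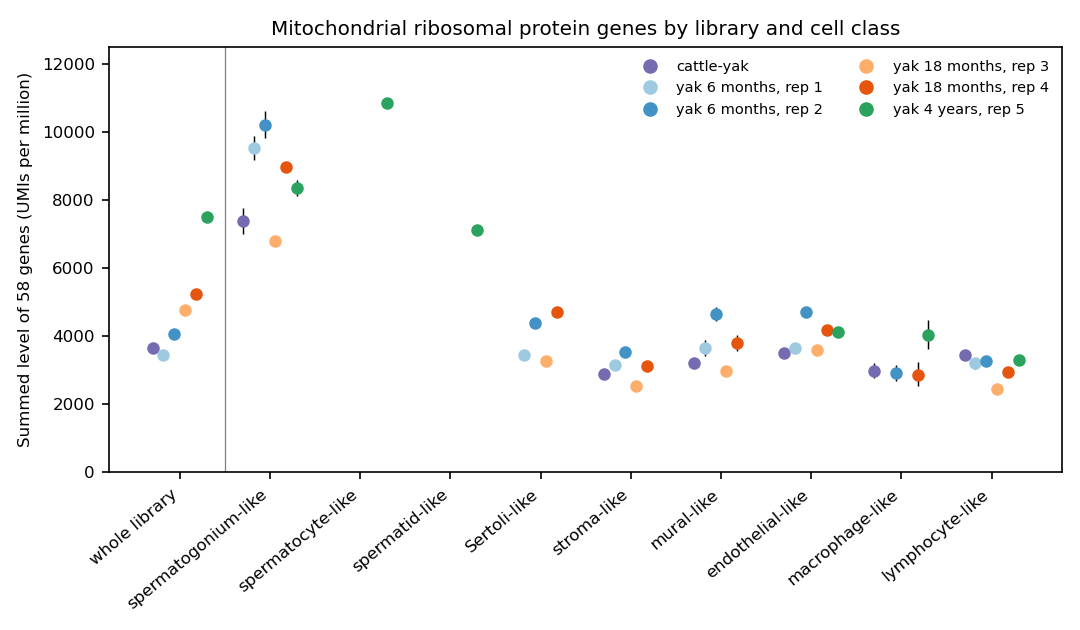
Summed level of the 58 mitochondrial ribosomal protein genes, in CPM, for whole libraries and for each cell class with at least 50 cells; each point is 1 library and black bars are exact 95% Poisson intervals of counting error only, often smaller than the point. The spermatogonium-like points lie between 6809 and 10214, above every somatic-like point, the highest of which is 4716.

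Among the named classes, germ-like cells carried the highest summed level in every library. In spermatogonium-like cells it was 7382 CPM in the cattle-yak, 9518 and 10214 CPM at 6 months, 6809 and 8986 at 18 months and 8351 CPM at 4 years. Stroma-like cells held 2900 CPM in the cattle-yak, 3156 and 3537 CPM at 6 months, and 2528 and 3118 at 18 months. No spermatogonium-like value came near any stroma-like value. Within a library the ratio of these sums, spermatogonium-like over stroma-like, ran from 2.55 in the cattle-yak to 3.02 in 6-month replicate 1. Set over endothelial-like cells, present in all 6 libraries, the ratio ran from 1.90 to 2.61. Spermatocyte-like cells of the 4-year yak reached 10862 CPM and spermatid-like cells 7130 CPM, both above the 4130 CPM of endothelial-like cells of the same library. Of 4 unnamed clusters with at least 50 cells of the 4-year yak, 2 were also high. In the cluster of 69 cells with raised Sertoli markers the sum was 9227 CPM (95% counting interval 8474 to 10028). There 3 elongating spermatid markers were raised too. The second high cluster, of 158 cells, held 8492 CPM. Its raised markers included 4 of elongating spermatids and 5 of spermatogonia, and UCHL1 was among its 10 leading genes. The other 2 held 4346 and 3766 CPM.

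The somatic-like classes all lay below the spermatogonium-like values and differed among themselves. Sertoli-like cells had 3456 and 4385 CPM at 6 months and 3262 and 4713 at 18 months. Endothelial-like sums ran from 3495 to 4716 CPM over 6 libraries, mural-like sums from 2976 to 4649 CPM over 5, lymphocyte-like sums from 2441 to 3446 CPM over 6, and macrophage-like sums from 2870 to 4037 CPM over 4. Every lymphocyte-like sum lay below every endothelial-like sum, and the ratio of lymphocyte-like to endothelial-like sums within a library was 0.680 to 0.986 in all 6. Without cluster 30 the cattle-yak sum in lymphocyte-like cells was 2762 CPM in place of 3446. The cells of that cluster held 7024 CPM (6769 to 7285), a value within the range of the spermatogonium-like sums. Set over stroma-like cells of the same library, Sertoli-like sums were 1.10 to 1.51 times as high in 4 libraries, mural-like sums 1.11 to 1.31 times in 5 and endothelial-like sums 1.16 to 1.42 times in 5. Other pairs of these classes overlapped in range. 18-month replicate 3 had the lowest sum of its class in stroma-like, Sertoli-like, mural-like, lymphocyte-like and spermatogonium-like cells.

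The nuclear genes of oxidative phosphorylation, 43 in the files, followed the same division. Their sum in spermatogonium-like cells was 11291 CPM in the cattle-yak, 13958 and 15077 CPM at 6 months, 9887 and 12986 at 18 months and 11692 CPM at 4 years. In stroma-like cells it was 5704 CPM in the cattle-yak, 5825 and 6397 CPM at 6 months, and 4228 and 5344 at 18 months. The 13 protein-coding transcripts of the mitochondrial genome, which are what this ribosome translates, ran the other way. They summed to 38522 CPM in spermatogonium-like cells of the cattle-yak, 5228 and 3694 CPM at 6 months, and 43504 and 34638 at 18 months. In stroma-like cells of the same libraries they summed to 56877, 26479, 35328, 60226 and 69418 CPM. Both nuclear sets were thus higher, and the mitochondrial transcripts lower, in spermatogonium-like than in stroma-like cells of every library that held both.

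**Figure D2:**
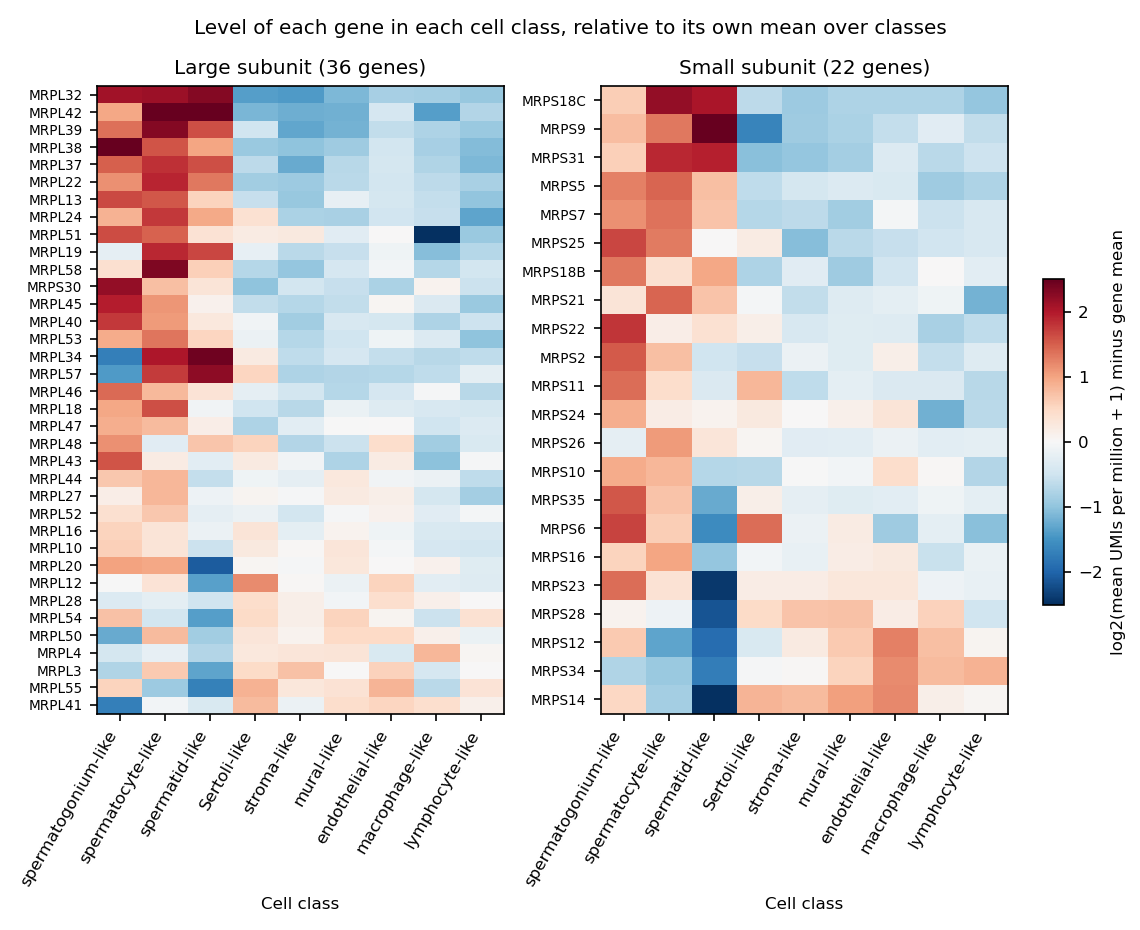
Level of each of the 58 genes in each cell class, as log2(mean CPM + 1) minus the mean of the gene over classes, with large subunit genes on the left and small subunit genes on the right; red is above and blue below the mean of the gene, and the colour scale ends at 2.5 either way. Most genes are red in 1 or more germ-like classes, while MRPL41, MRPS14, MRPS34 and MRPL55 are highest in somatic-like classes.

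Gene by gene, 23 of the 56 members with at least 200 UMIs in kept cells had their highest mean level in spermatogonium-like cells, 18 in spermatocyte-like cells and 6 in spermatid-like cells. Only 9 peaked in a somatic-like class: 4 in Sertoli-like, 3 in endothelial-like, 1 in stroma-like and 1 in mural-like cells. The same count was not made over all genes, so it is not shown to be particular to the members. The spermatocyte-like and spermatid-like means each rest on 1 library, those of the other classes on 4 to 6. Spermatid-like cells were also the class in which the most members, 15, were lowest, followed by stroma-like cells with 10. The members thus did not move as a block through the germ line.

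The widest spread over classes was that of MRPS14, a small subunit protein with a bacterial counterpart. It ranged over 4.93 log2 units, with a mean of 104 CPM in endothelial-like cells and 2.45 CPM in spermatid-like cells. MRPS9, also of the small subunit, went the other way over 4.42 log2 units, at 93.8 CPM in spermatid-like cells and 3.44 CPM in Sertoli-like cells. MRPL34 (4.13 log2 units) and MRPL42 (3.96 log2 units), both of the large subunit, peaked in spermatid-like cells at 192 and 502 CPM. MRPL34 was lowest in spermatogonium-like cells, at 10.0 CPM, and MRPL42 in macrophage-like cells, at 31.4 CPM. MRPL51 completed the 5 widest at 4.33 log2 units, with 19.1 CPM in spermatogonium-like cells and no UMI in macrophage-like cells. That range depends on the few macrophage-like UMIs: with 0 counts, a level of up to 14.2 to 43.8 CPM remained possible in the 4 libraries with at least 50 such cells (exact 95% upper limits of counting error).

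Spermatogonium-like cells were compared with stroma-like cells in the 5 libraries that held at least 50 of each. Clusters of 1063 and 486 cells made up the spermatogonium-like class, with 6 and 8 of 11 spermatocyte markers raised as well. Of 57 members tested, 22 were higher and 10 lower in spermatogonium-like cells, the remaining 25 not passing the test. Over all genes tested 26.7% were higher and 34.3% lower, and 61% changed in either direction, against which 32 of 57 members is close to the background. The median log2 fold change was 0.49 over members and -0.24 over all genes. TMM factors were the normalization used throughout. Scaled to library totals instead, 41 members (71.9%) were higher and 5 (8.77%) lower, against 46.4% and 19.8% of all genes. The all-gene median then moved to 0.71. That scaling left the 5 members with the largest fold changes each way called in the same direction. In plain CPM, 38 of the 58 members were higher and 6 lower in all 5 libraries. The same count was not made over all genes. Without 18-month replicate 4 the calls were 21 of 55 members, 13 higher (23.6%) and 8 lower (14.5%), against 22.5% and 31.3% of all genes. The share of members called higher was then close to that of all genes.

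Among the members that were higher, large subunit MRPL32 had 471 and 657 CPM in spermatogonium-like cells at 6 months, 296 and 292 CPM at 18 months and 229 CPM in the cattle-yak. In stroma-like cells it had 24.9, 38.1, 39.8, 37.2 and 18.3 CPM in the same libraries. The 2 classes were far apart in every library, and the log2 fold change was 2.56 ± 0.29 (SE; edgeR quasi-likelihood, Benjamini-Hochberg adjusted p = 3.41e-08). MRPL38, a large subunit protein specific to mitochondria, had 978, 1119, 619, 609 and 296 CPM in spermatogonium-like cells, against 47.7 to 77.1 CPM in stroma-like cells, in that order of libraries. Its log2 fold change was 2.53 ± 0.30. For MRPS25, a small subunit protein mutated in a human mitochondrial encephalomyopathy, the values were 507, 499, 362, 426 and 307 CPM in spermatogonium-like cells and 55.1, 55.1, 51.4, 75.1 and 53.8 CPM in stroma-like cells (log2 fold change 1.84 ± 0.27). MRPL37 had 67.6 to 132 CPM in spermatogonium-like cells and 13.5 to 19.7 CPM in stroma-like cells (1.82 ± 0.30). The groups did not overlap for any of these 4 genes. MRPL43 was also called, at 1.75 ± 0.76, but on few UMIs: 1 to 31 per library in spermatogonium-like cells and 0 to 12 in stroma-like cells, with an edgeR quasi-likelihood, Benjamini-Hochberg adjusted p of 0.0479. The other 17 members called higher ran from MRPS2 at 0.68 to MRPS30 at 1.74, and they include MRPL45, which anchors the ribosome to the inner membrane, MRPL40, MRPL39, MRPS22 and MRPS7.

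The members that were lower in spermatogonium-like cells were led by MRPL41, a large subunit protein specific to mitochondria. It had 19.8 and 95.7 CPM in spermatogonium-like cells at 6 months, 36.2 and 61.2 CPM at 18 months and 78.0 CPM in the cattle-yak, against 155, 195, 123, 181 and 190 CPM in stroma-like cells (log2 fold change -2.64 ± 0.31; edgeR quasi-likelihood, Benjamini-Hochberg adjusted p = 7.74e-08). MRPL34 had 3.29, 8.32, 2.51, 4.42 and 31.2 CPM against 23.9, 15.7, 10.3, 18.2 and 42.3 CPM (-2.57 ± 0.41). MRPL50 had 13.2, 20.8, 17.5, 27.2 and 20.8 CPM against 69.8, 69.4, 31.7, 56.1 and 57.2 CPM (-2.31 ± 0.34). MRPL41 and MRPL50 did not overlap between the classes, while the cattle-yak value of MRPL34 in spermatogonium-like cells exceeded 4 of the 5 stroma-like values. MRPL3, which reaches toward the peptidyl transferase centre, was lower by a log2 fold change of -2.28 ± 0.40 on 0 to 112 UMIs per library in spermatogonium-like cells and 20 to 125 in stroma-like cells. MRPL57 had 29.7, 95.7, 32.1, 35.7 and 36.4 CPM against 82.4, 80.4, 66.8, 71.6 and 66.4 CPM, so that 6-month replicate 2 went against its log2 fold change of -1.80 ± 0.30. MRPS26, MRPL12, MRPS14, MRPS28 and MRPS34 were the others called lower, but with library totals none of these 5 passed the threshold. In plain CPM, MRPS26 was higher in spermatogonium-like cells in 4 of the 5 libraries and MRPL12 and MRPS14 in 2.

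**Figure D3:**
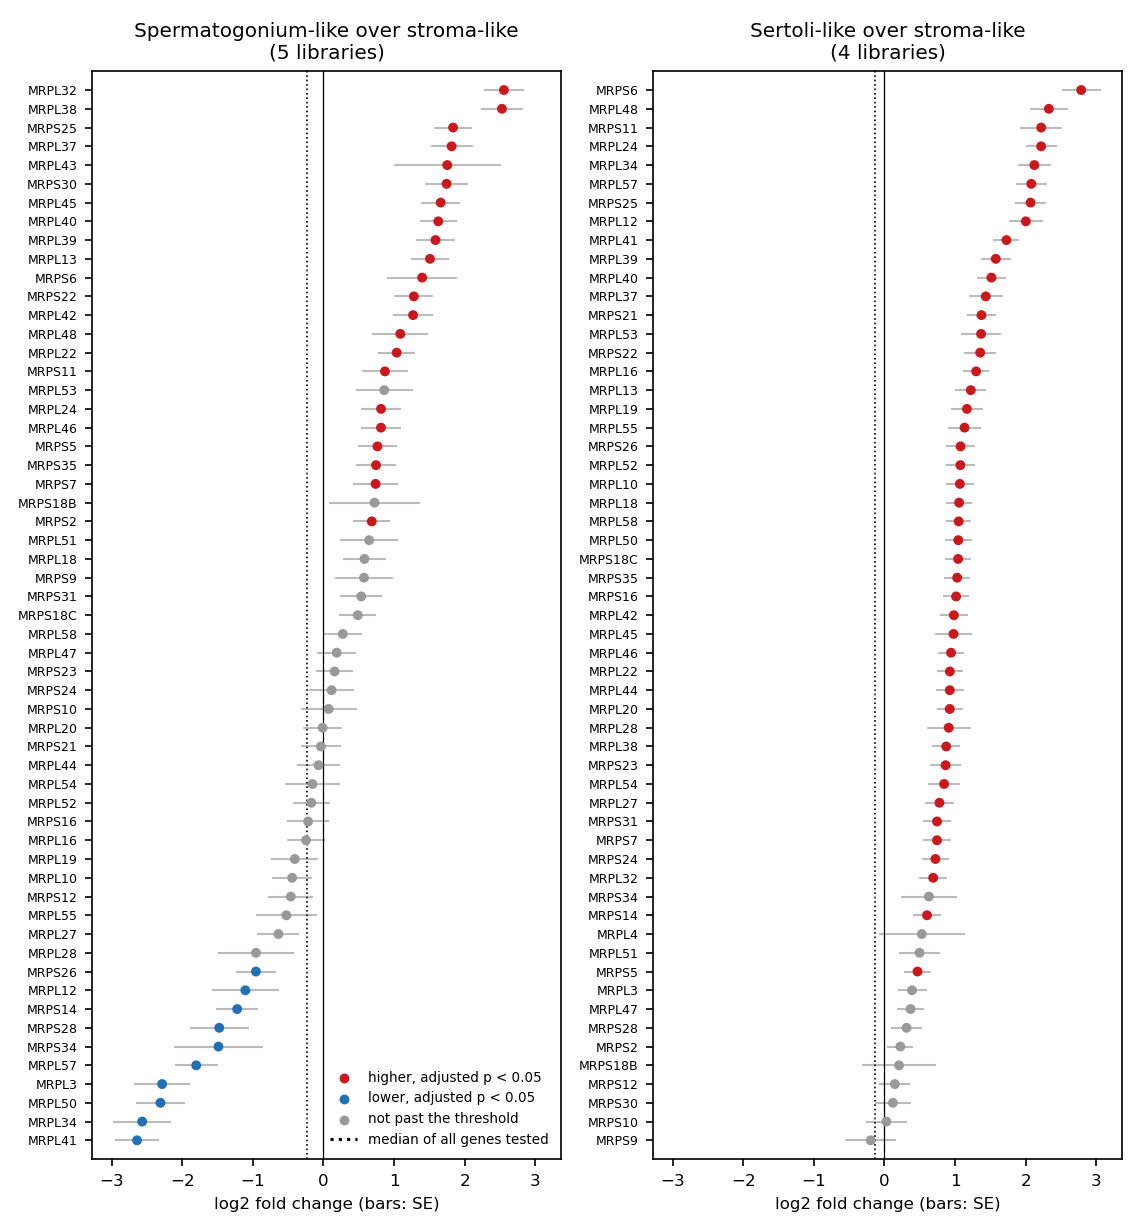
Log2 fold change of each tested member with its SE (bars) for spermatogonium-like over stroma-like cells (left, 5 libraries) and Sertoli-like over stroma-like cells (right, 4 libraries); red and blue mark members past an edgeR adjusted p of 0.05 and the dotted line is the median of all genes tested. Members spread to both sides on the left, from 2.56 for MRPL32 to -2.64 for MRPL41, and sit mostly above the dotted line on the right.

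Both subunits and both evolutionary groups held members that moved each way. In the large subunit 14 of 35 were higher and 6 lower (median 0.27), and in the small subunit 8 of 22 were higher and 4 lower (median 0.51). Of members with a bacterial counterpart 9 of 30 were higher and 5 lower (median 0.03), and of those specific to mitochondria 13 of 27 were higher and 5 lower (median 0.74). These groups were not tested against each other.

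Other genes of mitochondrial translation were counted in the same fit. Of 12 tested translation factors, 3 were higher in spermatogonium-like cells and none lower: LRPPRC (1.31 ± 0.28), which stabilises mitochondrial mRNAs, the elongation factor TUFM (0.79 ± 0.34) and the initiation factor MTIF3 (0.76 ± 0.33). Of 12 assembly factors, the rRNA methyltransferase MRM1 (1.37 ± 0.33) and FASTKD2 (1.08 ± 0.32) were higher and the GTPase NOA1 was lower (-1.46 ± 0.45). Of 3 mitochondrial ribosomal proteins without an MRP symbol, CHCHD1 was lower (-1.58 ± 0.31). Among 10 mitochondrial tRNA synthetases CARS2 was higher (1.96 ± 0.30), and WARS2 and RARS2 were lower. The mitochondrial RNA polymerase POLRMT was higher (1.64 ± 0.48) and the transcription factor TFAM lower (-0.88 ± 0.34). Of the regulators of mitochondrial biogenesis, PPARGC1A was higher (4.50 ± 1.15) and MYC lower (-6.41 ± 0.57). All 13 mitochondrial genome transcripts were lower, with a median of -2.69, and 23 of 24 cytosolic ribosomal protein genes were lower, with a median of -1.42. With library totals the mitochondrial transcripts stayed lower, 13 of 13, whereas the cytosolic ribosomal protein genes split into 12 lower and 1 higher.

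RNA of other cells was present beside these values. The Sertoli marker list summed to 440 to 2783 CPM in spermatogonium-like cells, and the spermatogonium marker list to 2113 to 4404 CPM there and 30.0 to 209 CPM in stroma-like cells. In stroma-like cells the Sertoli list reached 2220 to 12491 CPM, of which CST3 alone gave 1906 to 12270 CPM. Without CST3 it was 221 to 552 CPM, against 5282 to 11834 CPM in Sertoli-like cells. Their part in the fold changes was not tested. When each cell was instead gated by its own marker UMIs, only the 2 libraries of 18 months held at least 50 cells of both classes. In that fit 15 members were higher and 2, MRPL3 and MRPL41, lower. The shares of all genes called in the gated fit are not given here, so these counts are not set against a background. MRPL34, MRPL37, MRPL50 and MRPL57 kept their direction there without passing the threshold. The part of gating and that of the fewer libraries in the lost calls cannot be told apart.

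Sertoli-like cells, named after the cells that nourish germ cells in the tubule, were compared with stroma-like cells in the 4 libraries of 6 and 18 months. Of 57 members tested 45 were higher in Sertoli-like cells and none lower, with log2 fold changes of 0.47 to 2.79 among those called, against 26.4% of all genes higher and 27.5% lower. This count rests on the scaling. With library totals 11 members (19.3%) were higher and 3 (5.26%) lower, against 10.5% and 48.3% of all genes. A fold change above 0 was then seen in 38 of the 57 members, in place of 56. The median was 0.98 over members and -0.13 over all genes with TMM factors, and 0.14 and -0.96 with library totals. In plain CPM, 18 members were higher and 6 lower in all 4 libraries, which is closer to the counts with library totals. That count was not made over all genes.

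The 5 members with the largest fold changes were called under both scalings. MRPS6, a small subunit protein, had 9.96 and 15.0 CPM in Sertoli-like cells from 6-month yak and 15.8 and 20.2 CPM at 18 months, against 2.33, 4.43, 4.28 and 4.91 CPM in stroma-like cells (log2 fold change 2.79 ± 0.28; edgeR quasi-likelihood, Benjamini-Hochberg adjusted p = 6.9e-06; 1.93 with library totals). MRPL48 had 11.9, 21.0, 15.8 and 20.3 CPM against 4.32, 6.64, 6.42 and 7.72 CPM (2.33 ± 0.26; 1.46 with library totals). MRPL24 had 63.9, 80.9, 51.5 and 85.8 CPM against 27.6, 29.3, 25.3 and 23.9 CPM (2.22 ± 0.22). Sertoli-like and stroma-like values did not overlap for these 3 genes. MRPS11 had 137, 166, 99.9 and 54.3 CPM against 51.6, 46.0, 28.7 and 40.0 CPM (2.22 ± 0.30), with the smallest gap in 18-month replicate 4. MRPL34, which was lower in spermatogonium-like than in stroma-like cells, had 44.2, 51.0, 28.4 and 39.5 CPM in Sertoli-like cells against 23.9, 15.7, 10.3 and 18.2 CPM in stroma-like cells (2.12 ± 0.23). MRPL57 and MRPL41 were likewise called higher in Sertoli-like and lower in spermatogonium-like cells, and the difference between the 2 comparisons, which share the stroma-like cells, was not tested.

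The cytosolic ribosomal protein genes were higher in Sertoli-like cells as well, 25 of 25 with TMM factors (median 1.35) and 15 of 25 with library totals. Nuclear genes of oxidative phosphorylation were higher for 37 of 41, or 12 of 41 with library totals. Of 13 translation factors 6 were higher, among them MTIF3, TSFM and TUFM, and of 3 ribosomal proteins without an MRP symbol GADD45GIP1 and AURKAIP1 were higher. Most Sertoli-like cells of 18-month replicate 3 lay in a cluster with a median of 1199 UMIs per cell and most of those of replicate 4 in another with a median of 5936, so the class was not sampled alike in the 2 libraries.

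In the 4-year yak all germ-like stages were present, and they were followed through 4 clusters ordered by the markers given here. The first was spermatogonium-like (45 cells; UCHL1 at 2268 CPM). The next pair were both spermatocyte-like, 194 cells with SYCP3, a synaptonemal complex protein, at 783 CPM and 610 cells with SYCP3 at 9.26 CPM and CCNA1, the meiotic cyclin A1, at 411 CPM. The last was spermatid-like (736 cells; acrosomal ACRV1 at 1203 CPM). DMC1, a recombinase of meiosis, went against that order, at 8.22, 101, 3.97 and 167 CPM over the 4 clusters. The other markers overlapped too: UCHL1 was still at 1422 CPM in the SYCP3-high cluster, and CCNA1 at 247 CPM in the spermatid-like cluster. The summed level of the members was 8268 CPM in the first, 8375 CPM in the SYCP3-high cluster, 11823 CPM in the SYCP3-low cluster and 7130 CPM in the last. All values come from 1 library, so there is no replicate check, no test was made, and the intervals given cover counting error only.

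**Figure D4:**
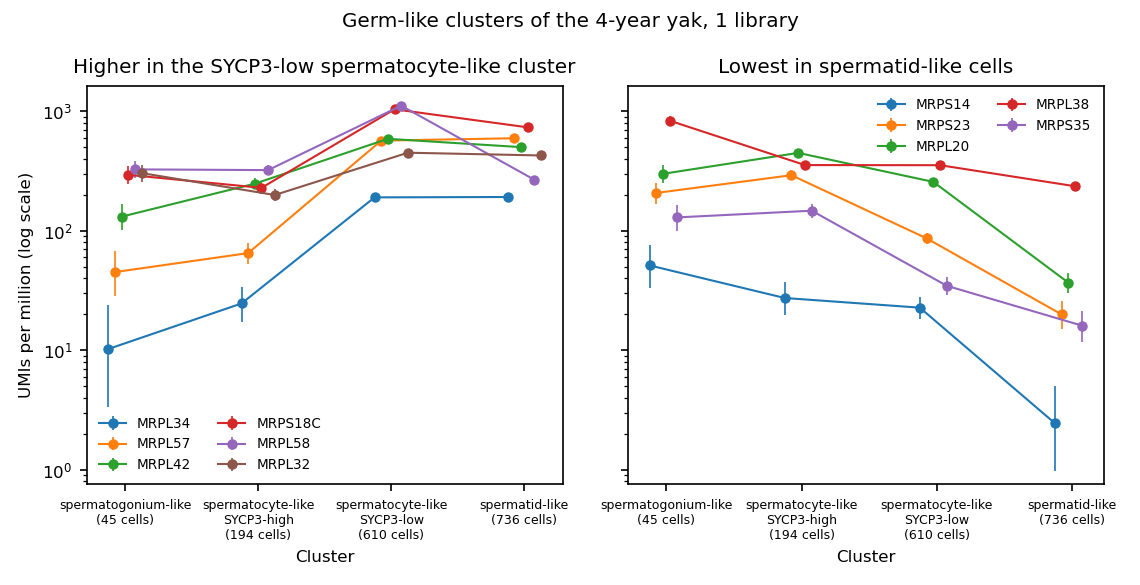
CPM (log scale) of 11 members in the 4 germ-like clusters of the 4-year yak, ordered by marker genes, with exact 95% Poisson intervals of counting error (bars); lines join the values of 1 gene. The left panel holds members that are higher in the SYCP3-low than in the SYCP3-high spermatocyte-like cluster, such as MRPL34 at 190 and 24.7, and the right panel members that are lowest in spermatid-like cells, such as MRPS14 at 2.45; these genes were picked after their values were seen.

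The step between the spermatocyte-like clusters was the largest for several large subunit genes. MRPL34 had 10.3, 24.7, 190 and 192 CPM over the 4 clusters in order, and MRPL57 45.2, 65.1, 568 and 595 CPM. MRPL42 had 131, 248, 588 and 502 CPM. Among the 4 clusters these 3 genes were lowest in the spermatogonium-like one, climbed between the SYCP3-high and SYCP3-low clusters and stayed high in spermatid-like cells. MRPL42 was still higher, in plain CPM, in spermatogonium-like than in stroma-like cells in all 5 libraries that held both. MRPL58, a peptidyl-tRNA hydrolase of the large subunit that frees stalled mitochondrial ribosomes, had 327, 322, 1114 and 268 CPM, a peak in the SYCP3-low cluster alone. MRPS18C, a small subunit protein with a bacterial counterpart, had 294, 229, 1040 and 734 CPM.

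Other members fell away. MRPS14 had 51.4, 27.4, 22.8 and 2.45 CPM over the clusters, MRPS23 207, 292, 86.5 and 20.0 CPM, and MRPS35 129, 147, 34.7 and 16.1 CPM. MRPL20 had 300, 449, 257 and 36.8 CPM, and MRPL38, a member with a large fold change in spermatogonium-like cells, 834, 355, 354 and 236 CPM. Small subunit genes moved both ways. MRPS9 had 39.0, 26.7, 36.5 and 93.8 CPM, with its peak in spermatid-like cells, and MRPS18C, MRPS24, MRPS26 and MRPS31 also stood past 2-fold higher in the spermatid-like than in the spermatogonium-like cluster, MRPS31 at 278 against 125 CPM and MRPS26 at 301 against 134 CPM.

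Over the whole class, spermatid-like against spermatogonium-like cells of the 4-year yak, 9 of the 49 members with at least 20 UMIs were past 2-fold higher and 19 past 2-fold lower, against 38.8% and 36% of all genes, or 74.8% in either direction. The median log2 ratio was -0.59 over members and 0.12 over all genes. The largest ratios were 18.7 for MRPL34 (192 against 10.2 CPM; 95% counting interval 8.55 to 51.3), then MRPL57 with 595 against 49.5 CPM, 4.63 for MRPL19, 3.61 for MRPS24 (88 UMIs against 5) and 3.54 for MRPL42. The smallest were 0.0435 for MRPS14 (7 UMIs against 33; 0.0162 to 0.100), 0.0812 for MRPS23, 0.105 for MRPL20, 0.111 for MRPS35 and 0.217 for MRPS12, which sits at the decoding centre. In the small subunit 9 of 19 were lower and 4 higher (median -0.99), and in the large subunit 10 of 30 were lower and 5 higher (median -0.28). When each cell was gated by its own markers, 5 of 50 members were past 2-fold higher and 25 lower. The median was then -1.07 over members and -0.39 over all genes. The shares of all genes past 2-fold were not counted with that gating, so its counts are not set against a background.

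Spermatocyte-like against spermatogonium-like cells of the same library gave 17 of 55 members past 2-fold higher and 10 lower, against 27.7% and 29% of all genes, with a median of 0.22 over members and -0.09 over all genes. MRPL34 stood at 14.1-fold (144 against 10.2 CPM), MRPL57 at 8.65-fold, MRPL19 at 5.35-fold, MRPS24 at 3.85-fold and MRPL41 at 3.58-fold. MRPS12 (0.342), MRPS30 (0.353), MRPS14 (0.427), MRPS22 (0.429) and MRPL48 (0.447) were the lowest. In the cattle-yak, with 45 spermatocyte-like and 82 spermatogonium-like cells, 2 of 37 members were past 2-fold higher, MRPL50 (4.49) and MRPL58 (2.05), and 3 lower, MRPL10 (0.381), MRPL19 (0.389) and MRPL24 (0.481), against 26.4% and 12.2% of all genes. Almost all spermatocyte-like cells of the cattle-yak, 41, lay in the SYCP3-high cluster, and 80 of its spermatogonium-like cells in a cluster that held 9 of the 4-year yak's, so the 2 animals are not compared stage by stage.

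Spermatid marker RNA was also counted in other cells of the 4-year yak. The round and elongating spermatid marker lists summed to 2836 and 3595 CPM in spermatid-like cells and to 110 and 224 CPM in endothelial-like cells of that library. In the same endothelial-like cells MRPL34 had 34.2 CPM, MRPL42 98.8 CPM and MRPL57 88.8 CPM, against 17.1 and 13.6 CPM, 39.0 and 49.4 CPM, and 77.2 and 61.2 CPM in endothelial-like cells of the 18-month libraries. The part of free RNA in these values was not tested.

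Age was tested between 18 months, when the first larger numbers of spermatogonium-like cells were seen, and 6 months. With edgeR's quasi-likelihood test and Benjamini-Hochberg adjustment no member passed the threshold in whole libraries or in any of the 6 classes with at least 50 cells in all 4 libraries. In whole libraries 8 of 58 members had an unadjusted p under 0.05, against 2.58% of all genes called (1.86% higher, 0.716% lower), and DESeq2 called MRPS11 and MRPL34, both lower. For spermatogonium-like cells it was 7 of 54 (2.39% of all genes called; 1.37% higher, 1.02% lower), and for Sertoli-like cells 12 of 55 (1.93% called; 1.15% higher, 0.782% lower). For stroma-like cells it was 3 of 55 (0.914% called; 0.762% higher, 0.152% lower), and for mural-like cells 1 of 40 (1.82% called; 1.45% higher, 0.364% lower). Endothelial-like cells had 0 of 54 (0.3% called; 0.191% higher, 0.109% lower) and lymphocyte-like cells 2 of 48 (0.032% called; 0.016% higher, 0.016% lower). DESeq2 called MRPS11 and MRPL52 lower in Sertoli-like cells and no member in the other 5 classes. The share that DESeq2 called lower in Sertoli-like cells was 3.64% of members and 3.78% of all genes. In whole libraries it was 3.45% of members and 3.75% of all genes. The members' shares with an unadjusted p under 0.05 are to be read against the same share of all genes, which was 23.0% over whole libraries, 19.3% for spermatogonium-like, 22.8% for Sertoli-like, 11.3% for stroma-like, 11.0% for mural-like, 5.25% for endothelial-like and 4.16% for lymphocyte-like cells. The members' share was 13.8% over whole libraries, and by class, in the same order, 13.0%, 21.8%, 5.45%, 2.50%, 0% and 4.17%. It lay below that of all genes in 6 of the 7 fits and beside it in lymphocyte-like cells.

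The classes held different clusters at the 2 ages. Most Sertoli-like cells at 18 months lay in a cluster with 144 cells of replicate 3 and in 2 clusters with 878 and 138 cells of replicate 4, whereas at 6 months most lay in 4 other clusters. Most stroma-like cells at 18 months lay in a cluster with 1491 cells of replicate 3 and in another with 844 cells of replicate 4, and at 6 months in 5 others. Age and this difference between clusters cannot be told apart.

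Most fold changes lay below 0, and this too depended on the scaling. With TMM factors the median over members was -0.32 for the whole libraries. By class it was -0.33 (spermatogonium-like), -0.67 (Sertoli-like), -0.54 (stroma-like), -0.36 (mural-like), -0.17 (endothelial-like) and -0.33 (lymphocyte-like), beside all-gene medians between -0.04 and 0.10. With library totals the member medians were 0.65, -0.08, 0.32, -0.17, -0.30, -0.07 and -0.23 in the same order, so whole libraries and Sertoli-like cells turned to the other side. The all-gene medians then were 1.03, 0.39, 1.06, 0.48, 0.10, 0.14 and 0.13, and the members' median lay below that of all genes in each of the 7 fits under both scalings.

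**Figure D5:**
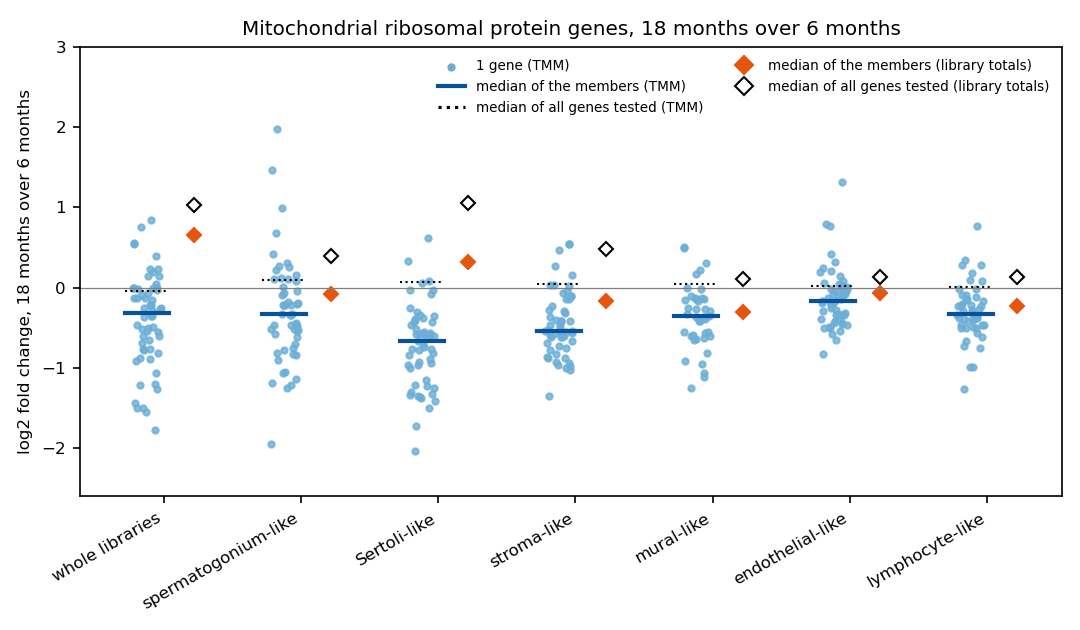
Log2 fold changes of the members between 18 months and 6 months in whole libraries and in 6 cell classes (blue points, 1 per gene), with the members' median (blue line) and the median of all genes tested (dotted line) under TMM factors, and the same medians under library totals (filled and open diamonds). The members' median lies below the all-gene median in each fit, but its sign in whole libraries and Sertoli-like cells differs between the scalings.

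MRPS11, a small subunit protein with a bacterial counterpart, had the lowest p in 4 of the 7 fits. In Sertoli-like cells it had 99.9 and 54.3 CPM at 18 months, against 137 and 166 CPM at 6 months (log2 fold change -2.03 ± 0.51; edgeR quasi-likelihood, Benjamini-Hochberg adjusted p = 0.0562). In spermatogonium-like cells it had 116 and 149 CPM against 214 and 312 CPM (-1.25 ± 0.45; adjusted p = 0.101 by the same edgeR test). In stroma-like cells the values were 28.7 and 40.0 CPM against 51.6 and 46.0 CPM. Both 18-month libraries lay below both 6-month libraries in all 3 classes, without the difference passing the threshold. MRPL52 in Sertoli-like cells had 196 and 293 CPM at 18 months, against 411 and 429 CPM at 6 months (-1.73 ± 0.54), and MRPL45 22.1 and 35.1 CPM against 40.9 and 46.1 CPM (-1.51 ± 0.50). MRPL32 in spermatogonium-like cells had 296 and 292 CPM against 471 and 657 CPM (-1.22 ± 0.46), and MRPL19 in stroma-like cells 28.3 and 26.7 CPM against 44.0 and 62.0 CPM (-1.35 ± 0.37). In whole libraries MRPL12 (-1.50 ± 0.53), the stalk protein that also binds the mitochondrial RNA polymerase, and MRPL34 (-1.78 ± 0.67) followed MRPS11 (-1.44 ± 0.41). In the other classes the members with the lowest p were MRPS11, MRPS21 and MRPL16 in mural-like, MRPL51, MRPL12 and MRPL42 in endothelial-like and MRPL44, MRPL42 and MRPL19 in lymphocyte-like cells.

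The result without calls depends on the 18-month pair. Without 18-month replicate 4, members were called lower in 5 of the 7 fits: 15 over whole libraries, 16 for Sertoli-like cells, 21 for stroma-like cells, 3 for mural-like cells (MRPL52, MRPL16 and MRPL20) and 2 for spermatogonium-like cells (MRPS11 and MRPL13). In the same fits 7.61% of all genes were called lower over whole libraries, 7.58% for Sertoli-like, 6.93% for stroma-like, 5.78% for mural-like and 3.98% for spermatogonium-like cells. In these fits the 18-month group is replicate 3 alone, assumed to vary like the 6-month pair, so that age and this library cannot be told apart. Without replicate 3, MRPS11 alone was called, in Sertoli-like cells, where 4.73% of all genes were called lower. Filters for gene number, mitochondrial share and doublet score kept 3977 of 7373 barcodes of replicate 3 and 3993 of 6181 of replicate 4, against 7396 of 8946 and 5670 of 6776 at 6 months. The part of these differences in the fold changes was not tested.

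The mitochondrial transcripts that the ribosome translates stood apart from its proteins. At 18 months 13 of 13 were called higher in Sertoli-like cells (median 2.62) and 11 of 13 in spermatogonium-like cells (median 2.90), where no member was called. Summed, they had 95940 and 74293 CPM in Sertoli-like cells at 18 months, against 7246 and 6990 CPM at 6 months. With the stricter cell filter these sums were 20711 CPM (42 cells) and 54016 CPM at 18 months, against 7453 and 6403 CPM at 6 months, so the size of the difference depends on the cells kept, most of all in replicate 3. No cytosolic ribosomal protein gene was called in any class with TMM factors, where 24 of 25 had an unadjusted p under 0.05 in Sertoli-like cells.

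The mature yak was set against adolescent yak, and the cattle-yak against the mature yak, to see which members differ with maturity and in the hybrid. The 4-year group and the cattle-yak have 1 library each, so these are ratios with counting intervals and no test. In the 4-year yak 11 of 58 members were past 2-fold higher than the mean of the 18-month libraries and 8 lower, against 21.6% and 27.4% of all genes, with a median log2 ratio of 0.04 over members and -0.29 over all genes. The largest ratios were 6.53 for MRPL34 (107 against 16.5 CPM), 4.59 for MRPL42 (332 against 72.3 CPM), 3.79 for MRPS18C, 3.72 for MRPL57 (325 against 87.4 CPM) and 3.38 for MRPL58. The same genes climbed in the SYCP3-low spermatocyte-like cluster, which made up 610 of the 4562 cells of that library. All but MRPL58 were also higher in its spermatid-like than in its spermatogonium-like cells. The part of these cells in the ratios was not tested. The lowest were MRPL54 (0.224), MRPL55 (0.243), MRPS6 (0.273), MRPS14 (0.295; 28.5 against 96.6 CPM) and MRPL43 (0.322), and the base of MRPL55 differed between the 18-month libraries, at 39.3 and 7.83 CPM. Set over 18-month replicate 3 or 4 alone, the ratio was 0.146 or 0.730 for MRPL55 and 11.7 or 4.53 for MRPL34, while the other 8 genes named moved by less than 1.5 times. With replicate 3 alone 15 members were past 2-fold higher and 9 lower, and with replicate 4 alone 13 higher and 6 lower. The shares of all genes were not counted for either replicate alone.

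Summing named somatic-like cells alone, an alternative chosen after seeing the data, left 2 of 58 members past 2-fold higher and 10 lower, against 17.7% of all genes each way. MRPL42 stood at 2.58-fold, MRPS18C at 1.77-fold, MRPL58 at 1.72-fold and MRPL34 at 1.58-fold. MRPL57 turned to the other side, at 0.879-fold, and MRPS14 stood at 0.389-fold. The somatic-like cells were not of the same make-up: at 4 years they were mostly endothelial-like (1520) and lymphocyte-like (823), with 1 Sertoli-like and 3 stroma-like cells, whereas the 18-month libraries held 1657 and 1227 stroma-like and 170 and 1039 Sertoli-like cells. The part of this difference in the ratios was not tested.

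In the cattle-yak no member was past 2-fold higher than in the 4-year yak and 23 of 57 were past 2-fold lower, against 16.3% and 34.2% of all genes, or 50.5% in either direction. The median log2 ratio was -0.78 over members and -0.33 over all genes. The lowest were MRPL32 at 0.139 (38.6 against 278 CPM; 95% counting interval 0.123 to 0.156), MRPS9 at 0.157 (6.03 against 38.5 CPM), MRPL42 at 0.163 (54.2 against 332 CPM), MRPL37 at 0.211 and MRPL57 at 0.214 (69.4 against 325 CPM). The highest was MRPL4, on few UMIs, at 1.95. In named somatic-like cells alone 1 of 56 members was past 2-fold higher and 5 lower, against 8.69% and 20.4% of all genes, and the medians were -0.22 over members and -0.25 over all genes. Without cluster 30, also chosen after seeing the data, no member was past 2-fold higher and 5 were lower. In all named somatic-like cells MRPL32 stood at 0.326, MRPS9 at 0.373, MRPL42 at 0.465, MRPL37 at 0.496 and MRPL57 at 0.716. By cluster name these cells differed in make-up. The cattle-yak held 676 stroma-like, 349 mural-like, 566 endothelial-like and 1655 lymphocyte-like cells, against 3, 2, 1520 and 823 in the 4-year yak. An absence of mural cells from the 4-year yak is not shown. Its unnamed clusters of 132 and 200 cells had 8 and 6 of 8 mural markers raised, beside 7 endothelial and 5 stroma markers. Marker gating of single cells counted 180 mural cells in that library and 405 in the cattle-yak. The part of the make-up in the ratios was not tested. The germ-like share was 3.49% in the cattle-yak against 34.9% in the 4-year yak, and with 1 library each the hybrid, the animal and the library cannot be told apart.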

How the data were processed

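The deposited matrices hold raw UMI counts per gene and cell from testis libraries, made by the authors with Cell Ranger (5.0.0 per the file headers, 2.1.1 per the submitters' processing notes); the build of the genome: not given in the sources used here. Barcodes held at least 500 UMIs. Kept cells had 300 genes or more and no more than 20% of UMIs from the mitochondrial genome, after removal of the highest doublet scores (208 to 640 per library, a share that grew with the barcode number; Scrublet in scanpy 1.11.5, Python 3.11.15), leaving 29240 of 40564. Cells were clustered (Leiden, resolution 2, 30 principal components, 2000 variable genes without the members) into 42 clusters, 36 of them named from at least 3 raised markers; 848 cells stayed unnamed.

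Counts were summed per library and class. edgeR 4.0.16 in R 4.3.3 (TMM, filterByExpr, quasi-likelihood, library as a factor between classes) was fitted to all genes, with Benjamini-Hochberg adjustment over all genes tested and a threshold of 0.05. The code was checked on simulated counts. Single-library comparisons used CPM ratios past 2-fold for genes with at least 20 UMIs, with exact 95% intervals; intervals cover counting error only. Alternatives were library totals, DESeq2 1.42.0, no low-count filter, stricter cells (500 genes, 10%), 50 UMIs, nuclear-gene totals, marker gating, no library term and each library left out. Members and lists were chosen with earlier results of these data known. Named genes are up to 5 called each way by fold change, or otherwise the 3 with the lowest p; the 5 with the most UMIs; the 3 largest and smallest SDs over libraries; and the 5 widest ranges over classes. Of 58 members 57 matched a RefSeq symbol, all protein coding; no sequence is shown. Reads shared with gene copies were not tested.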

Additional observations from a re-analysis of the deposited data

How the results depend on the processing

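No member was called between 18 and 6 months in 7 fits, and this count moved with several choices. In whole libraries it was 5 with library totals, all higher (MRPL32, MRPL37, MRPL38, MRPL51 and MRPS30), beside 21.9% of all genes called higher. Without a low-count filter it was 5, all lower (MRPS11, MRPL12, MRPL34, MRPL50 and MRPL57), beside 3.85% of all genes called lower. With DESeq2 it was 2, both lower, beside 3.75% of all genes. In Sertoli-like cells it was 1 without the filter (MRPS11, beside 1.42% of all genes lower) and 2 with DESeq2 (beside 3.78% lower). In stroma-like cells it was 1 without the filter (MRPL19, beside 0.631% of all genes lower). Leaving out 1 library gave 0 to 15 calls in whole libraries, 0 to 2 in spermatogonium-like, 0 to 16 in Sertoli-like, 0 to 21 in stroma-like, 0 to 3 in mural-like and 0 to 0 in endothelial-like and lymphocyte-like cells. The 32 calls between spermatogonium-like and stroma-like cells became 17 with marker gating, which left only the 2 libraries of 18 months in the fit. They became 21 to 34 with 1 library left out. The 45 calls between Sertoli-like and stroma-like cells became 14 with library totals, 19 without the library term and 39 to 43 with 1 library left out. The 19 members past 2-fold between the 4-year and 18-month yak became 12, and the 23 between the cattle-yak and the 4-year yak 6, in named somatic-like cells alone, where the ratio of MRPL57 between 4 years and 18 months turned to 0.879. Without cluster 30 the 6 became 5, and leaving out either 18-month library gave 19 to 24 in place of the 19. The 5 members past 2-fold in germ-like cells of the cattle-yak became 1 with at least 50 UMIs and 13 with marker gating. The cause of these shifts was not tested. Of the values for single genes under each setting, 433 counted as unchanged. These kept their direction and side of the threshold or, with no test, stayed within the counting interval of the main value. Another 21 came to pass the threshold and 4 ceased to. A further 20 with no test moved beyond that interval, and 1 value changed direction. The stricter cell filter was not run for age in Sertoli-like and mural-like cells, nor marker gating for age in spermatogonium-like cells, because a library then held under 50 cells of the class. No paired analysis was possible because the 6-month and 18-month libraries share no replicate number.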
